A study of Mus musculus with 4 samples.

Results

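The cells described here are Kit+ mouse bone marrow cells that carry platelet messages and were labelled megakaryocyte progenitors with Pf4. Members were chosen by their own RNA counts. A cell barcode entered with 500 or more genes detected, 1000 or more gene UMIs (unique molecular identifiers, 1 per captured transcript) and no more than 10% mitochondrial UMIs, and it was a member if, per 10000 gene UMIs, the genes Pf4, Gp1bb, Gp9 and Ppbp together reached at least 10 while the neutrophil genes S100a8, S100a9, Ngp, Camp, Ltf and Lcn2 together stayed under 200. This rule found 723 of 19758 kept cells in 3 libraries, with 330 in the control library, 253 in the library labelled Mll3 deleted and 140 in the library labelled Mll4 deleted. No member was found among 7408 kept cells of the fourth library, labelled Mll3/4 deleted, and the whole series held 27166 kept cells. Of those 7408, 7325 were B-lineage cells, against 540 of 7768 in control. B-lineage cells had Cd79a, Cd79b, Vpreb1 and Igll1 together at 10 or more per 10000 gene UMIs.

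The study profiled CD45.2+ Kit+ bone marrow cells of mice, taken 10 weeks after transplantation, by 10x Genomics 3' single-cell RNA sequencing together with barcoded antibodies against surface proteins and 2 hashtag antibodies. CD45.2 is an allele of the leukocyte protein CD45 used to tell donor from recipient cells, and Kit is the receptor for stem cell factor carried by stem and progenitor cells. All 4 groups share this sort, tissue and time after transplantation. They differ by genotype as titled: control, Mll3 deleted, Mll4 deleted, or both genes deleted. The deleted alleles, the driver of the deletion, the sex and number of the donor and recipient animals and the meaning of the 2 hashtags are not given in the sources used here. Each group is 1 library, so no comparison between groups has a replicate and none was tested. Intervals given with values are exact 95% intervals that cover counting error only. Both comparisons with control use the same control library, so they are not independent of each other.

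Megakaryocytes are the bone marrow cells that release platelets. Their progenitors leave the stem cell pool through a CD41+ CD150+ stage, switch on GATA, FLI1 and RUNX1 programs under thrombopoietin signalling, and later copy their DNA without dividing (endomitosis) while filling granules with platelet proteins. Mll3 and Mll4, encoded by Kmt2c and Kmt2d, are histone methyltransferases that mark enhancers with monomethylation of histone H3 lysine 4.

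Depth differed between the libraries. Member cells held a median of 19127 UMIs in control, 24104 in the Mll3-labelled sample and 6679 in the Mll4-labelled sample, and their summed UMIs were 6789048, 6689847 and 1040250. The targeted genes were read first in the member cells, in CPM (UMIs per 1000000 gene UMIs of the member cells of a library). Kmt2c stood at 62.0 CPM in control, 29.3 in the Mll3-labelled sample and 63.4 in the Mll4-labelled sample. Kmt2d stood at 28.7, 22.6 and 17.3 CPM, and in the Mll4-labelled sample it rested on 18 UMIs, with 11.8 CPM in Hashtag1 cells and 31.0 CPM in Hashtag2 cells. The log2 ratio to control of Kmt2c in the Mll3-labelled sample was -1.06 (-1.33 to -0.83), while that of Kmt2d in the Mll4-labelled sample was -0.70 (-1.52 to -0.03), and in other cells of that library -0.15. UMIs at a gene's 3' end can lie outside a deleted part, so the level of Kmt2d does not settle the label. Xist, the RNA of the inactive X chromosome, had 9563 UMIs in control members, 8281 in Mll3-labelled members and 0 in Mll4-labelled members, where the Y-linked gene Eif2s3y had 71 UMIs against 0 and 0 in the others. In the Mll4-labelled sample, sex and deletion therefore cannot be told apart. Kept cells of any library pair shared between 6 and 16 barcodes, and no member barcode of one library was a member of another.

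The class had shares within counting error of each other in control and in the Mll3-labelled sample, and made up a smaller share of the Mll4-labelled sample, where neutrophil-rich cells were many. Members were 4.25% of kept cells in control (3.81 to 4.72), 3.99% in the Mll3-labelled sample (3.52 to 4.50) and 2.48% in the Mll4-labelled sample (2.09 to 2.92). As log2 ratios to control, the shares were -0.09 (-0.32 to 0.14) and -0.78 (-1.06 to -0.50). Neutrophil-rich cells, those at or above the limit of 200, numbered 2033, 1279 and 3006 in the same order. With these left out of the denominator, members were 5.75% (5.17 to 6.39), 4.998% (4.41 to 5.63) and 5.30% (4.47 to 6.22) of the remaining cells, and the log2 ratio of the Mll4-labelled sample was -0.12 (-0.40 to 0.16). The difference in share was thus present over all kept cells and within counting error over cells below the neutrophil limit.

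Hashtag1 cells held a larger share of members than Hashtag2 cells in each of the 3 libraries. The shares were 4.79% (4.13 to 5.52) and 3.82% (3.22 to 4.50) in control and 4.53% (3.84 to 5.30) and 3.58% (2.90 to 4.36) in the Mll3-labelled sample. In the Mll4-labelled sample they were 3.38% (2.74 to 4.12) and 1.73% (1.26 to 2.32), the only pair whose intervals did not overlap. Over cells below the neutrophil limit, the intervals of the 2 hashtags overlapped in each of the 3 libraries. In the Mll3/4-labelled sample, 0 of 7408 cells allows a share of up to 0.0498%, the upper end of the exact interval. Its highest-scoring cell had 7.26 rule UMIs per 10000, and 9 of its kept cells had any rule UMI. That library held 7325 B-lineage cells and 1 cell rich in erythroid genes, against 540 and 1504 in control. The absence of members there was thus not particular to this class.

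**Figure D1:**
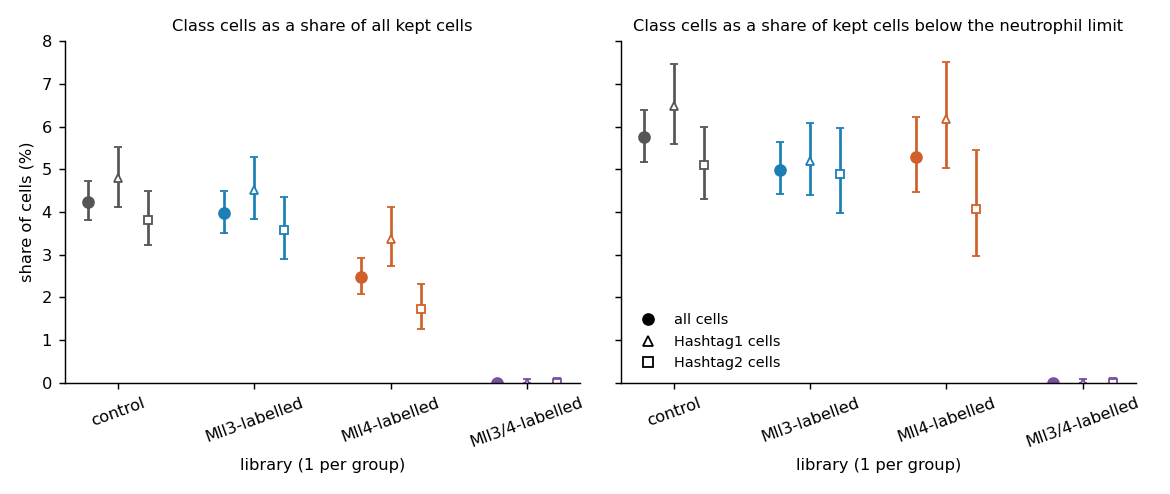
Share of member cells (y axis, percent) in each of the 4 libraries (x axis), over all kept cells at left and over kept cells below the neutrophil limit at right, for all cells (filled circles), Hashtag1 cells (triangles) and Hashtag2 cells (squares), with exact 95% intervals. The Mll4-labelled sample is lowest of the 3 at left, at 2.48%, and lies between control and the Mll3-labelled sample at right, at 5.30%.

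The threshold of 10 cuts a continuous score. In control, 72 cells lay just outside it, at 5 to 10 rule UMIs per 10000, and 34 just inside, at 10 to 15. In the Mll3-labelled sample these were 70 and 36 cells, and in the Mll4-labelled sample 30 and 13. Itga2b stood at 175 CPM just outside and 223 CPM just inside in control, at 133 and 141 in the Mll3-labelled sample, and at 349 and 767 in the Mll4-labelled sample. Genes of other lineages changed more in control. There the erythroid gene Car1 stood at 525 CPM just outside and 18.8 just inside. The granulocyte genes Elane and Mpo stood at 51.0 and 1238 CPM and at 80.5 and 666 CPM. In the Mll3-labelled sample Car1 stood at 391 and 228 CPM, Elane at 306 and 109, and Mpo at 292 and 282. The median member had 37.3 rule UMIs per 10000 in control, 36.6 in the Mll3-labelled sample and 40.3 in the Mll4-labelled sample, and 2, 1 and 1 members rested on fewer than 5 rule UMIs. Members with the thresholds of both hashtags passed were 3.33%, 4.35% and 2.14%. Doublets were kept, as the rule has it, and 22, 13 and 3 members were among the cells with the highest Scrublet doublet scores.

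The members carried the markers of megakaryocyte progenitors. Since the rule chose these cells by their own counts, the values against other cells are a description. The rule genes come first. Pf4, platelet factor 4, a chemokine of platelet alpha granules, stood at 4797 CPM in control, 5106 in the Mll3-labelled sample and 4456 in the Mll4-labelled sample. Ppbp, another granule chemokine, stood at 12.8, 8.07 and 18.3 CPM. Gp1bb and Gp9, parts of the receptor for von Willebrand factor, stood at 77.2, 48.9 and 49.99 CPM and at 68.2, 61.4 and 27.9 CPM. Pf4 thus carried nearly all of the rule score.

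Of the markers outside the rule, Itga2b, the integrin alpha chain known as CD41, stood at 318, 268 and 811 CPM in members of the control, Mll3-labelled and Mll4-labelled libraries. Other cells below both limits had 21.97, 12.6 and 38.6 CPM. Cavin2, a protein of membrane caveolae, stood at 338, 288 and 444 CPM, against 6.87, 8.98 and 6.83 in other cells. Plek (pleckstrin, a substrate of protein kinase C in platelets) stood at 346, 316 and 600 CPM, against 19.3, 13.2 and 46.2. Vwf, von Willebrand factor, stood at 126, 138 and 129 CPM, against 2.17, 3.64 and 2.10. All 4 genes were higher in members than in other cells in each of the 3 libraries.

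At least 1 UMI of Itga2b was found in 95.5%, 94.9% and 95.7% of members, of Cavin2 in 94.2%, 96.8% and 87.1%, and of Vwf in 71.5%, 85.0% and 48.6%. These shares depend on depth, and the Mll4-labelled sample had the fewest UMIs per cell, so they give no order between libraries. Over all kept cells, members included, 1759 of 7768, 1486 of 6341 and 407 of 5649 had a UMI of a rule gene. Pf4 was also counted in B-lineage cells, which should lack it. Whether its UMIs there came from free RNA or from doublets was not tested. A Pf4 UMI was found in 3.52% of B-lineage cells in control (median 4610 UMIs), 5.84% in the Mll3-labelled sample (4514.5) and 0% in the Mll4-labelled sample (2308). With every cell thinned to 2000 UMIs, these shares were 0.984%, 2.19% and 0%, and those of members were 98.5%, 99.2% and 99.3%. Thinning left out 2, 2 and 0 members and 32, 46 and 79 B-lineage cells for want of depth.

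Of genes of later megakaryocytes, 3 that were named after their values were seen had few UMIs. Tubb1, the platelet beta-tubulin, had 0, 1 and 0 UMIs, Myl9, a myosin light chain, also 0, 1 and 0, and Gp6, the collagen receptor, 4, 2 and 0. Other genes of mature platelets were present, among them Gp5, at 86.0, 56.1 and 160 CPM, and Selp, at 54.6, 36.5 and 58.6 CPM.

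Stem cell genes as a list were higher in members than in other cells. The 20 genes summed to 1407, 1129 and 1099 CPM in members and to 921, 710 and 863 CPM in other cells, and 274 of 330, 157 of 253 and 74 of 140 members had at least 10 of their UMIs per 10000. Per cell, the medians were 13.3, 11.2 and 10.4 UMIs per 10000 in members against 9.60, 6.09 and 7.71. Ifitm3, an interferon-induced membrane protein, gave the largest part of the sum, at 697, 609 and 317 CPM against 260, 193 and 164. The 5 stem cell markers did not move together. Procr had 2, 3 and 0 UMIs in members, Fgd5 3, 4 and 0, and Ly6a, which encodes Sca1, stood at 1.77, 0.598 and 0 CPM against 9.66, 8.50 and 12.97. The transcription factor Hlf stood at 29.0, 26.6 and 29.8 CPM against 38.8, 29.9 and 33.2, and Mecom, another one, at 17.5, 26.3 and 21.1 CPM against 11.5, 12.95 and 22.6. Checked against its label, the class thus had high levels of platelet markers and next to no UMIs of Tubb1, Myl9 and Gp6. Its summed stem cell list was above that of other cells, with Ifitm3 as the largest part. Of the 5 stem cell markers, Ly6a and Hlf were below other cells in each library, and Mecom was above them in control and the Mll3-labelled sample only.

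Among all genes, those whose lowest ratio of members to other cells over the 3 libraries was largest, named after the values were seen, were Treml1, Vwf, Cavin2, Ehd3 and Timp3. Treml1, a receptor of platelet alpha granules, stood at 111, 93.4 and 98.1 CPM in members and at 2.51, 1.81 and 2.10 CPM in other cells. Ehd3, a protein of membrane recycling, stood at 69.5, 64.7 and 110 CPM against 1.08, 1.31 and 1.93. Abundant messages that set the members apart included Rap1b, the small GTPase that activates platelet integrins, at 1160, 1208 and 1686 CPM against 112, 107 and 161. Cd9, a tetraspanin of the platelet surface, stood at 666, 588 and 688 CPM against 55.0, 38.0 and 39.0. Car1, the erythroid carbonic anhydrase, went the other way, at 29.3, 97.8 and 12.5 CPM against 1774, 1864 and 1205.

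**Figure D2:**
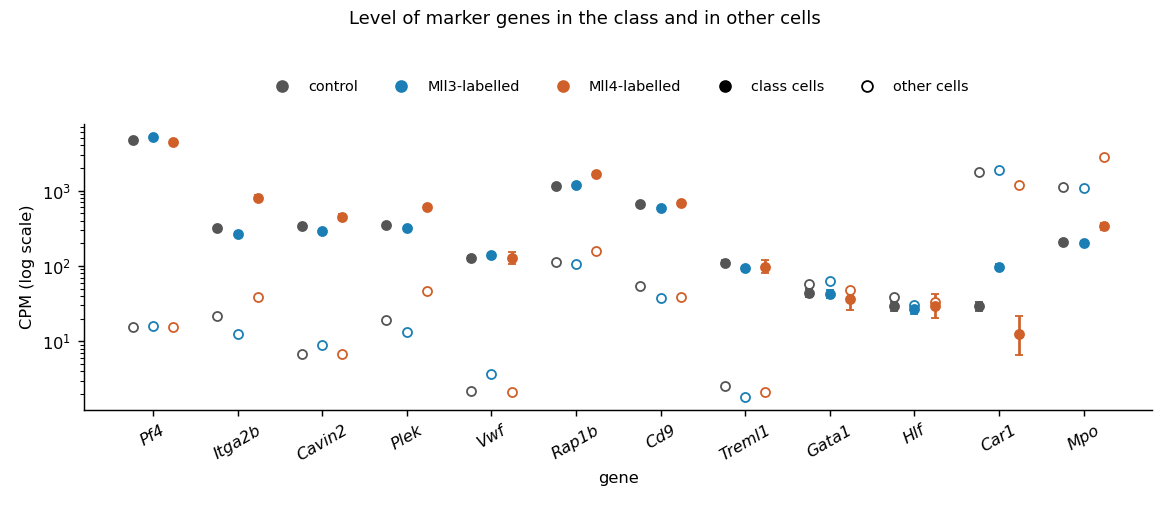
Levels of 12 genes (x axis) in CPM on a log scale (y axis) in members (filled) and other cells below both limits (open) of the control, Mll3-labelled and Mll4-labelled libraries, with exact 95% counting intervals for members. The 4 markers outside the rule lie well above the open points in each library, Itga2b and Plek are highest in the Mll4-labelled members, and Car1 and Mpo lie below the open points.

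Promoter sequence of 4 genes is printed because the rule or the differences between libraries turn on them: Pf4 carries the rule, Itga2b and Serpine2 were high in Mll4-labelled members, and Serpine2 and Mmrn1 were low in Mll3-labelled members. The 250 bases before each annotated start are from RefSeq, build GRCm38.p6, written 5' to 3' on the gene's strand: Pf4 at chr5:90772185-90772434 on the plus strand, Itga2b at chr11:102469884-102470133 on the minus strand, Serpine2 at chr1:79858666-79858915 on the minus strand and Mmrn1 at chr6:60944067-60944316 on the plus strand. Capitals mark the ETS-type letters AGGAAG or their reverse complement CTTCCT.
Pf4: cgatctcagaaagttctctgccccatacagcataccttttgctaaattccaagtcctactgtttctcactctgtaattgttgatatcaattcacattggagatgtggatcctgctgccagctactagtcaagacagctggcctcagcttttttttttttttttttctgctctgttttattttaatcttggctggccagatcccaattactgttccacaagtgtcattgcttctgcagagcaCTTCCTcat
Itga2b: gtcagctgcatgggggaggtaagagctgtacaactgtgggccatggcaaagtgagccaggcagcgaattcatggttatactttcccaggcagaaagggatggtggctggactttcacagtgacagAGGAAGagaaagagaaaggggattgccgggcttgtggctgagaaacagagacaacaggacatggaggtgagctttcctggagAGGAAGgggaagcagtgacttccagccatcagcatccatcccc
Serpine2: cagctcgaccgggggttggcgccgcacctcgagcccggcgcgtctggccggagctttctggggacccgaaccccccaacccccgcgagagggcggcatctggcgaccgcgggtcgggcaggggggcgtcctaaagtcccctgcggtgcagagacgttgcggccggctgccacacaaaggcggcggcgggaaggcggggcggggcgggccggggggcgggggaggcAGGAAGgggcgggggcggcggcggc
Mmrn1: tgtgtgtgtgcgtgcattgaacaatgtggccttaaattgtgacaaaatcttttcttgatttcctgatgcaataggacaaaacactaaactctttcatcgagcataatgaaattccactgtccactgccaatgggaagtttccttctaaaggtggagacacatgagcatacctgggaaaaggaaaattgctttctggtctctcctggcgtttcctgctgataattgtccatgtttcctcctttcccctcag
The ETS-type letters occurred at bases -9 to -4 before the start of Pf4, at -125 to -120 and -43 to -38 before that of Itga2b, and at -25 to -20 before that of Serpine2, and not in the Mmrn1 window. The GATA-type letters searched, AGATAA or TTATCT, occurred in none of these 4 windows. Other letters around GATA, such as tgataa in the Mmrn1 window, were not searched. Nor were other ETS-type letters, such as aaggaaaa and tttcct in that window. Over all 32851 promoters of the RefSeq table, AGGAAG on either strand was present in 29.5% and AGATAA in 9.99%. Among 52 promoters of the 47 genes with an entry, out of 58 genes of the 3 platelet lists used here (granule, surface, cytoskeleton), the shares were 48.1% and 13.5%. The 2 motifs do not overlap in letters, and a match describes the sequence without showing that a factor binds there.

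Surface antibodies, which the rule did not use, placed the members in the CD41+ CD150+ gate. A cell counted as positive above a threshold set by a 2-component mixture in the control library. CD41, the protein of Itga2b, was above it in 99.7% of control members (98.3 to 100), 98.8% of Mll3-labelled members (96.6 to 99.8) and 100% of Mll4-labelled members (97.4 to 100), against 43.9%, 27.1% and 59.2% of other cells. CD150, the product of Slamf1 and a marker of stem cells and megakaryocyte progenitors, was above it in 96.1% (93.4 to 97.9), 90.5% (86.2 to 93.8) and 86.4% (79.6 to 91.6), against 29.4%, 27.8% and 22.9%. CD41 and CD150 were both above threshold in 96.1%, 89.7% and 86.4% of members. The reverse did not hold: of all kept cells with both, 22.3%, 22.6% and 21.9% were members.

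The amount of CD41 was highest in the library with the highest Itga2b message. Members had a lowest, median and highest CD41 count of 2, 204.5 and 2344 in control, 1, 174 and 2337 in the Mll3-labelled sample, and 36, 444.5 and 2366 in the Mll4-labelled sample. Ranges overlapped almost entirely, and the Mll4-labelled median was above the upper quartiles of 365.25 in control and 368 in the Mll3-labelled sample. The medians by hashtag were 219 and 173 in control, 176 and 183 in the Mll3-labelled sample, and 475.5 and 382 in the Mll4-labelled sample. Total antibody counts per member had medians of 1011.5, 915 and 1384.5, and CD41 medians of other cells were 6, 3 and 11, both also highest in the Mll4-labelled sample, and their part in the difference was not tested. CD150 counts had medians of 51, 56 and 40, lowest in the Mll4-labelled sample.

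CD48, a protein of the SLAM family that is low on stem cells, was above threshold in 58.2% of control members (52.7 to 63.6), 40.7% of Mll3-labelled members (34.6 to 47.0) and 71.4% of Mll4-labelled members (63.2 to 78.7). Other cells had 74.4%, 62.8% and 80.9%. The lower Mll3-labelled share rested on the threshold taken from control. With a threshold fitted in each library, CD48 was above it in 58.2% of control members, 59.7% of Mll3-labelled members (53.4 to 65.8) and 73.6% of Mll4-labelled members (65.5 to 80.7), and in 74.4%, 76.5% and 84.3% of other cells. In Hashtag2 cells alone, at the control threshold, the Mll4-labelled share was 55.8% (39.9 to 70.9) against 53.6% in control (44.9 to 62.1), so the higher Mll4-labelled share was not present there beyond counting error. CD34, a sialomucin of early progenitors, was above threshold in 5.15% of control members, 19.0% of Mll3-labelled members and 15.7% of Mll4-labelled members, against 36.8%, 37.0% and 48.9% of other cells. CD117, the Kit protein of the sort, was above its threshold in 65.8%, 75.9% and 64.3%, and Sca1, a stem cell antigen, in 7.58%, 12.3% and 5.71%. CD117 was above a threshold fitted in each library in 73.1% of Mll3-labelled and 55.0% of Mll4-labelled members. At the control threshold, its Mll3-labelled share was 82.3% in Hashtag1 cells and 64.5% in Hashtag2 cells. With a threshold in each library, CD34 was above it in 12.6% of Mll3-labelled members and Sca1 in 7.51%, the latter against 7.58% in control. Of antibodies of other lineages, CD11b and B220 were above threshold in at most 0.791% of members of a library. CD16/32, which marks Fc receptors, was above the control threshold in 9.09%, 15.4% and 6.43% of members. Other cells had 18.6%, 22.3% and 26.2%. Its median counts were 13, 22 and 15 in members and 13, 16 and 20 in other cells, so Mll3-labelled members had the higher median. Gr1 was above the control threshold in 3.64%, 8.70% and 11.4%, and above a threshold of each library in 3.64%, 4.74% and 2.14%, so its order turned with the threshold.

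**Figure D3:**
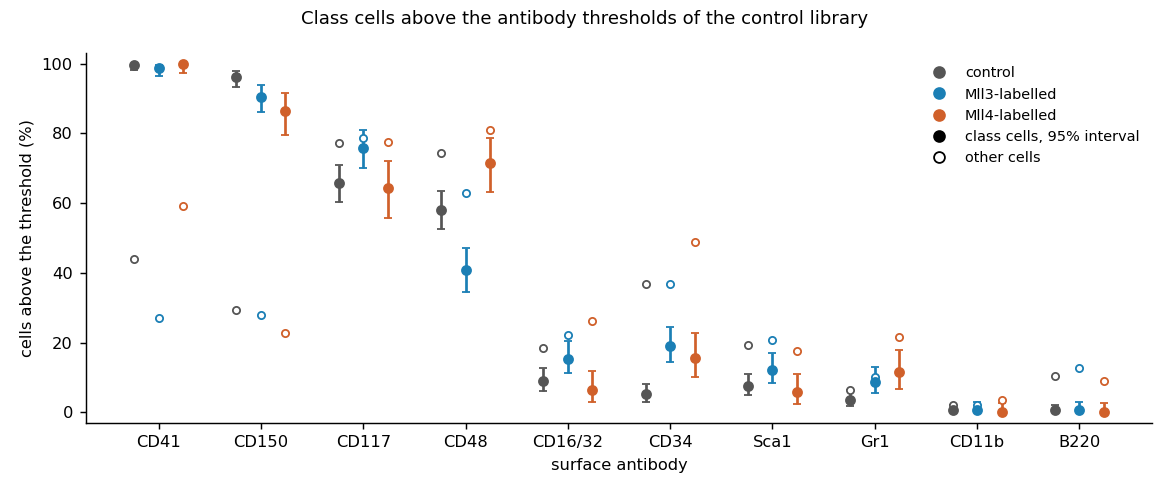
Share of member cells above the control-library threshold (y axis, percent) for 10 surface antibodies (x axis) in 3 libraries, filled with exact 95% intervals, beside other cells (open). CD41 and CD150 are positive on 86.4% or more of members in each library, and CD48 shows shares of 58.2%, 40.7% and 71.4%, which become 58.2%, 59.7% and 73.6% with a threshold fitted in each library.

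Within the class, the Mll3-labelled sample differed little from control over most genes, with lower levels of a few platelet secretory and surface genes. Ratios are log2 ratios of CPM with 1 CPM added, over genes with at least 20 UMIs in either library. Of 10234 genes measured, 193 (1.89%) were past 2-fold, 59 higher (0.577%) and 134 lower (1.31%). The median over all genes was -0.05, with 4186 genes higher and 6048 lower.

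The platelet granule and secreted list had 12 of 14 genes measured outside the rule, 8 higher and 4 lower, with a median of 0.10. The 2 genes past 2-fold were both lower. Mmrn1, multimerin, a carrier of coagulation factor V in alpha granules, stood at 79.4 CPM in control and 16.4 CPM in Mll3-labelled members, a log2 ratio of -2.20 (-2.58 to -1.97). Hashtag1 and Hashtag2 cells had 87.1 and 71.7 CPM in control and 7.98 and 34.2 CPM in the Mll3-labelled sample, so both hashtags of the latter were below both of the former. In other cells Mmrn1 was also lower, at 4.67 and 1.24 CPM, with an interval of -2.18 to -1.66 that overlapped that of the members. With cells thinned to 2000 UMIs its ratio in members was -1.45.

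Serpine2, protease nexin 1, an inhibitor of thrombin, stood at 124 CPM in control and 41.1 CPM in Mll3-labelled members, a ratio of -1.58 (-1.80 to -1.40), against -0.80 in other cells (-1.20 to -0.82 without the added 1 CPM). Its ratio was -2.23 with cells thinned to 2000 UMIs and -0.95 in Hashtag2 cells alone. Its hashtag values were 141 and 109 CPM in control and 34.8 and 56.1 CPM in the Mll3-labelled sample. Selp, P-selectin, the adhesion receptor stored in alpha granules, stood at 54.6 and 36.5 CPM (-0.57, -0.82 to -0.35). Srgn, serglycin, the proteoglycan that packs granule proteins, stood at 952 and 736 CPM (-0.37, -0.42 to -0.32), against -0.27 in other cells. Thbs1, thrombospondin, an adhesive glycoprotein, was higher, at 11.05 and 20.2 CPM (0.81, 0.45 to 1.30, and 1.78 after thinning), and Vwf differed little, at 126 and 138 CPM (0.13, -0.0010 to 0.27).

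Of the platelet surface receptors, 15 of 19 genes outside the rule were measured, 4 higher and 11 lower, with a median of -0.20 and none past 2-fold. Gp5, a part of the receptor for von Willebrand factor, stood at 86.0 and 56.1 CPM (-0.61, -0.81 to -0.43). Esam, an endothelial and platelet adhesion molecule, stood at 21.1 and 10.6 CPM (-0.93, -1.42 to -0.57, and -1.86 after thinning). Clec1b, the podoplanin receptor CLEC-2, stood at 23.1 and 11.96 CPM (-0.90, -1.36 to -0.55), but this came from 1 hashtag: Hashtag1 and Hashtag2 cells had 4.12 and 26.7 CPM in the Mll3-labelled sample against 22.7 and 24.7 CPM in control. In Hashtag2 cells alone the ratio of Clec1b was 0.11 and the list median 0.01. Itga2b was 318 and 268 CPM (-0.25, -0.34 to -0.16), and its partner Itgb3 50.4 and 52.2 CPM (0.05, -0.17 to 0.27).

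Cytoskeleton and signalling genes stayed close to control. Of 21 genes, 17 were measured, 7 higher and 10 lower, with a median of -0.05 and none past 2-fold. Rap1b stood at a ratio of 0.06, Rgs18, a regulator of G-protein signalling in platelets, at -0.06, and Fermt3, kindlin-3, which activates integrins, at 0.20 (0.12 to 0.28). Plek stood at -0.13, and at 0.08 in Hashtag2 cells alone, and Cavin2 at -0.23 (-0.32 to -0.14).

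Of 17 megakaryocyte and erythroid transcription factors, all measured, 15 were lower and 2 higher, with a median of -0.14 and none past 2-fold. Gata2, the GATA factor of progenitors, stood at 159 and 123 CPM (-0.37, -0.50 to -0.24). Meis1, a homeobox factor of stem cells and megakaryocytes, stood at 217 and 177 CPM (-0.29, -0.40 to -0.18). Fli1, the ETS factor of megakaryocyte genes, stood at 270 and 231 CPM (-0.22, -0.32 to -0.13), and Gata1 at 43.7 and 42.6 CPM (-0.04, -0.28 to 0.20). The Gata2 and Fli1 ratios in other cells were -0.50 and -0.36, no smaller in size than in members.

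In the thrombopoietin signalling list, 19 of 20 genes were measured, 16 lower and 3 higher, with a median of -0.31 and none past 2-fold. The lower genes included effectors of the pathway: Pim1, a survival kinase induced by STAT5, at 76.4 and 48.3 CPM (-0.65, -0.87 to -0.46), Bcl2l1, the survival factor BCL-XL, at 23.1 and 14.8 CPM (-0.61, -1.02 to -0.27), and Myc at 115 and 83.4 CPM (-0.45, -0.62 to -0.30). In other cells these 3 ratios were -0.59, -0.19 and -0.29. The higher genes included Ptpn11, the phosphatase SHP2, at 102 and 125 CPM (0.29, 0.14 to 0.43).

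The medians of the cell-cycle lists lay close to 0. Of 20 G2/M genes, 19 were higher, with a median of 0.15 and none past 2-fold, among them Cenpf, a kinetochore protein, at 167 and 209 CPM (0.33, 0.21 to 0.44) and Mki67 at 495 and 566 CPM (0.19, 0.13 to 0.26). This median was 0.02 with a rule threshold of 20 in place of 10. The 20 S-phase genes had a median of 0.07, with 16 higher. The 20 genes of endomitosis and cell-cycle control had a median of -0.03, with Ccnd2, cyclin D2, at 319 and 239 CPM (-0.42, -0.51 to -0.33), Cdk6 at 437 and 334 CPM (-0.39, -0.47 to -0.31) and Plk1, a mitotic kinase, at 36.4 and 53.7 CPM (0.55, 0.32 to 0.80). Cdkn1a, the inhibitor p21, was the 1 gene of this list past 2-fold, at 3.24 and 10.3 CPM, with 39.1% of its Mll3-labelled UMIs in 1 cell.

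Stem cell genes were mostly lower, 12 of 16 measured, with a median of -0.27. Ifitm1, an interferon-induced membrane protein also used as a stem cell marker, was past 2-fold, at 82.3 and 40.4 CPM (-1.01, -1.24 to -0.82), against -0.49 in other cells. Txnip, an inhibitor of thioredoxin, stood at 210 and 129 CPM (-0.70, -0.83 to -0.59). Interferon and immediate early genes had medians of -0.20 and -0.14, the latter 0.41 in Hashtag2 cells alone.

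Several of the largest ratios in the Mll3-labelled members rested on few cells or were shared with other cells. Car1 stood at 29.3 and 97.8 CPM, with 29.5% of its Mll3-labelled UMIs in 1 cell. Its ratio of 1.70 was -0.28 without the cells of highest doublet score and -0.04 without members rich in erythroid genes. Irf8, a factor of monocytes and dendritic cells, stood at 2.95 and 13.9 CPM, with 45.2% of UMIs in 1 cell. The heat-shock gene Hspa1a stood at 1.03 and 12.1 CPM, found in 1.52% and 18.6% of members, with a ratio of 1.40 in other cells. Among lower genes, Tjp1, a tight-junction protein, stood at 21.1 and 2.24 CPM (-2.77, -4.11 to -2.46), against -2.19 in other cells. Clec4d, a C-type lectin of myeloid cells, stood at 23.7 and 3.89 CPM (-2.34, -3.27 to -2.01), against -0.74 in other cells.

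Within the Mll4-labelled members, the medians of the cytoskeleton and signalling, endomitosis and DNA replication lists lay above that of all genes, Itga2b and 3 other platelet surface genes were past 2-fold and higher, and Apoe was lower than in control. Of 10055 genes measured, 888 (8.83%) were past 2-fold, 485 higher (4.82%) and 403 lower (4.01%). The median over all genes was 0.14, with 6061 higher and 3994 lower. With TMM scaling, which centres the libraries on their common genes, the median was -0.07 and the split 249 higher and 619 lower, so list medians are given also relative to the median of all genes. With 1040250 UMIs against 6789048 in control, the ratios of single genes here carry wider intervals than those of the Mll3-labelled sample.

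Of the 15 platelet surface genes measured outside the rule, 10 were higher and 5 lower, with a median of 0.14, which is -0.0020 relative to all genes. The list as a whole was thus at the median of all genes, and its median was 0.86 with cells thinned to 2000 UMIs. Of its genes, 6 had an interval above 0 and none had one below, and 4 were past 2-fold and higher. Itga2b stood at 318 CPM in control and 811 CPM in Mll4-labelled members, a ratio of 1.35 (1.23 to 1.47), against 0.79 in other cells. Hashtag1 and Hashtag2 cells had 326 and 312 CPM in control and 751 and 943 CPM in the Mll4-labelled sample, with no overlap. Over 16 settings of the processing, the main one included, the ratio of Itga2b lay between 1.13 and 1.59.

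Clec1b stood at 23.1 and 88.4 CPM (1.89, 1.55 to 2.32), with hashtag values of 22.7 and 24.7 CPM in control and 89.95 and 96.1 CPM in the Mll4-labelled sample. Trpc6, a calcium channel opened by diacylglycerol, stood at 57.7 and 143 CPM (1.30, 1.03 to 1.59), and P2ry1, the ADP receptor of platelets, at 40.1 and 94.2 CPM (1.21, 0.89 to 1.57). In other cells Clec1b stood at 0.157 and 0.739 CPM, so low that the added 1 CPM hides most of its ratio. Without that addition, the intervals of the ratio in other cells were 1.12 to 3.30 for Clec1b, 0.68 to 1.42 for Trpc6 and 0.99 to 1.36 for P2ry1, and each overlapped that of the members. Just under 2-fold were Itgb3, at 50.4 and 101 CPM (0.99, 0.67 to 1.32, and 0.26 with cells thinned to 2000 UMIs), and Gp5, at 86.0 and 160 CPM (0.88, 0.63 to 1.14). Cd9, at 666 and 688 CPM (0.05, -0.07 to 0.16), and Esam, at 21.1 and 21.1 CPM, had intervals that included 0.

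Granule genes were mixed. Of 12 measured, 9 were higher and 3 lower, with a median of 0.14, or -0.0072 relative to all genes. Serpine2 was the 1 gene past 2-fold and higher, at 124 and 317 CPM (1.34, 1.162 to 1.54), with hashtag values of 329 and 313 CPM and a ratio of 1.35 in other cells. Mmrn1 stood at 79.4 and 99.01 CPM (0.32, 0.00020 to 0.63), Selp at 54.6 and 58.6 CPM (0.10, -0.31 to 0.50) and Vwf at 126 and 129 CPM (0.03, -0.24 to 0.30). Srgn was lower, at 952 and 641 CPM (-0.57, -0.69 to -0.46), where other cells had -0.06. Thbs1 was past 2-fold and lower, at 11.05 and 3.85 CPM, on 4 UMIs. Serpine2 was thus the highest of the 3 libraries here and the lowest in the Mll3-labelled one, at 317, 124 and 41.1 CPM in Mll4-labelled, control and Mll3-labelled members.

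Cytoskeleton and signalling genes were higher for the most part, 14 of 17 measured, with a median of 0.41, or 0.26 relative to all genes, and none past 2-fold. Plek stood at 346 and 600 CPM (0.79, 0.66 to 0.92), with 368 and 340 CPM by hashtag in control and 625 and 524 CPM in the Mll4-labelled sample. Rap1b stood at 1160 and 1686 CPM (0.54, 0.46 to 0.61), Rgs18 at 478 and 700 CPM (0.55, 0.43 to 0.67), and Prkcq, protein kinase C theta, at 34.9 and 70.2 CPM (0.99, 0.61 to 1.39, and 1.66 after thinning). Their ratios in other cells were 1.22, 0.52, 0.87 and 0.41. Over the 16 settings the list median lay between 0.19 and 0.59.

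The 17 transcription factors had a median of 0.08, or -0.07 relative to all genes, with 10 higher, 7 lower and none past 2-fold. Mef2c, a MADS-box factor of megakaryocytes and B cells, was the farthest above control, at 656 and 1187 CPM (0.86, 0.76 to 0.95), with 0.85 in other cells. Fli1 stood at 270 and 331 CPM (0.29, 0.12 to 0.46). Below control were Zfpm1, the GATA1 cofactor FOG1, at 317 and 230 CPM (-0.46, -0.66 to -0.27), Ldb1, which joins GATA1 complexes to distant sites, at 59.9 and 37.5 CPM (-0.66, -1.19 to -0.20), and Lyl1 at 31.7 and 18.3 CPM (-0.76, -1.55 to -0.12). Gata1 at 43.7 and 36.5 CPM (-0.25, -0.79 to 0.23), Gata2 at 159 and 175 CPM (0.14, -0.09 to 0.37) and Runx1 at 195 and 206 CPM (0.08, -0.14 to 0.29) had intervals that included 0.

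The thrombopoietin list had a median of 0.11, or -0.03 relative to all genes, with 13 of 19 higher. Its kinase Jak2 stood at 40.5 and 68.3 CPM (0.74, 0.36 to 1.13). The 3 genes past 2-fold were inhibitors of cytokine signalling and lower: Socs1, Socs2 and Cish, on 3, 10 and 3 UMIs in the Mll4-labelled sample against 60, 140 and 62 in control. Only Socs2 had 10 or more UMIs in both, at 20.6 and 9.61 CPM (-1.03, -2.19 to -0.18).

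Of the megakaryocyte and cell-cycle lists, DNA replication genes had the highest median. Of 20 S-phase genes, 18 were higher, with a median of 0.51, or 0.37 relative to all genes, and 2 were past 2-fold. These were subunits of the MCM helicase: Mcm5 at 112 and 275 CPM (1.29, 1.10 to 1.498) and Mcm6 at 236 and 574 CPM (1.28, 1.15 to 1.42). Mcm7 stood at 137 and 245 CPM (0.84, 0.64 to 1.04). Pcna, the sliding clamp, did not follow, at 291 and 293 CPM, and Tyms, thymidylate synthase, was lower, at 150 and 109 CPM (-0.46, -0.75 to -0.18). Other cells had ratios of 0.99, 1.11 and 0.88 for Mcm5, Mcm6 and Mcm7, -0.23 for Pcna and -0.41 for Tyms, so the pattern was not limited to the members.

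The endomitosis list had 17 of 20 genes higher, with a median of 0.44, or 0.29 relative to all genes. Its median ratio in other cells was 0.31, so the shift was not limited to the members. Ccne1 and Ccne2, cyclins of the entry into S phase, were past 2-fold, Ccne2 at 17.5 and 38.5 CPM (1.09, 0.58 to 1.66) and Ccne1 at 8.54 and 20.2 CPM (1.15, 0.45 to 1.98). Aurkb, a kinase of chromosome separation and cytokinesis, stood at 68.8 and 133 CPM (0.94, 0.66 to 1.22), and Ccnd2 at 319 and 417 CPM (0.39, 0.23 to 0.54). G2/M genes were mixed, 12 of 20 higher with a median of 0.13: Nusap1, a spindle protein, stood at 96.8 and 176 CPM (0.86, 0.62 to 1.10), and Cks2, a subunit of cyclin-dependent kinases, at 392 and 258 CPM (-0.60, -0.79 to -0.42).

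Among stem cell genes, with a median of -0.0080 and 8 of 16 higher, 1 was past 2-fold and higher. This was Mycn, at 75.4 and 182 CPM (1.26, 1.02 to 1.51), against 0.81 in other cells. Past 2-fold and lower were Ifitm1, at 82.3 and 35.6 CPM (-1.19, -1.73 to -0.73), and Ifitm3, another interferon-induced membrane protein, at 697 and 317 CPM (-1.13, -1.30 to -0.97). Tcf15, a factor of quiescent stem cells, stood at 24.7 and 6.73 CPM, on 7 UMIs, and Hoxb5 at 0 UMIs against 26.  The interferon list had a median of 0.28 and the immediate early list one of 0.21, each on few UMIs.

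Apoe, apolipoprotein E, was far below control in the Mll4-labelled members. It stood at 444 CPM in control, 323 in Mll3-labelled and 53.8 in Mll4-labelled members, and was found in 89.7%, 92.1% and 20.7% of them. The ratio was -3.02 (-3.45 to -2.66) in the Mll4-labelled sample, against -1.68 in other cells, and -0.46 (-0.54 to -0.38) in the Mll3-labelled sample. Lat, an adaptor of T cell and platelet collagen signalling, stood at 80.3 and 17.3 CPM in control and Mll4-labelled members (-2.15, -2.98 to -1.54). Ptprcap, which binds CD45, stood at 123 and 26.9 CPM (-2.16, -2.80 to -1.66), and Gmfg, an actin regulator of blood cells, at 265 and 81.7 CPM (-1.69, -2.03 to -1.38). In other cells these 3 ratios were -1.42, -0.83 and -0.91. Gdpd3 stood at 26.8 CPM in control and had 0 UMIs in Mll4-labelled members, where 3 UMIs would be 2.88 CPM.

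**Figure D4:**
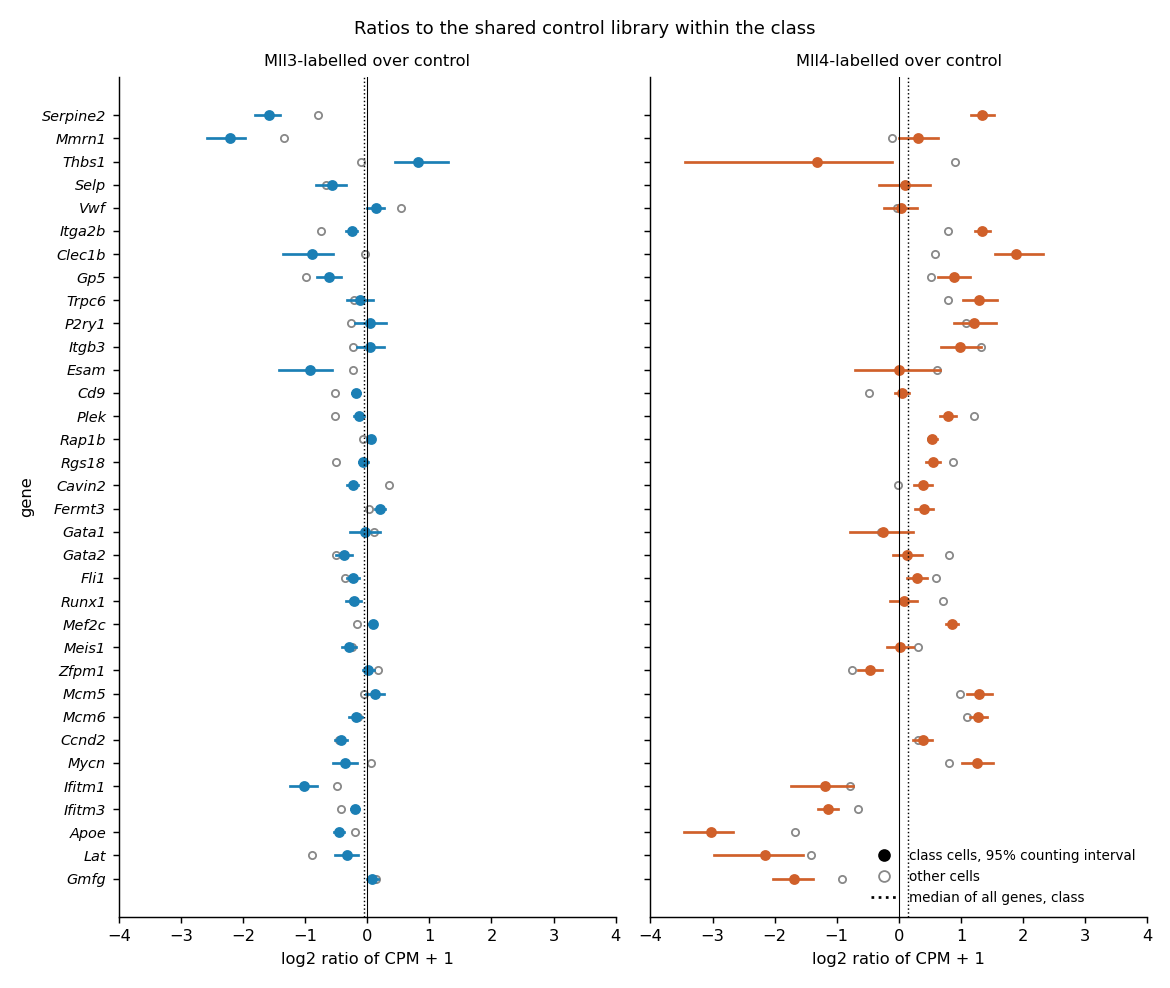
Log2 ratios of CPM + 1 to the shared control library (x axis) for 34 genes (y axis) in Mll3-labelled (left) and Mll4-labelled members (right), filled with 95% counting intervals, beside the ratio in other cells (open) and the median over all genes (dotted). The added 1 CPM draws open points toward 0 for genes near or below 1 CPM in other cells, such as Clec1b and Thbs1. Serpine2 lies at -1.58 at left and 1.34 at right, Mmrn1 is lowest at left at -2.20, and Apoe is lowest at right at -3.02.

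Messages of other cell types in the members were read beside these results. Neutrophil and granulocyte genes, 14 in all, summed to 1728 CPM in control, 1405 in Mll3-labelled and 3575 in Mll4-labelled members, and to 5847, 5882 and 10820 CPM in other cells below the neutrophil limit. Per cell, the list had a median of 13.3, 10.5 and 32.1 UMIs per 10000 in members and 22.7, 21.1 and 64.3 in other cells. In Mll4-labelled members 10 of its 12 genes measured were higher than in control, 5 of them past 2-fold. The median ratio was 0.76 in members against 1.24 in other cells. The list was thus highest in the Mll4-labelled sample in both, and its part in the ratios was not tested. Leaving these genes out of the totals was among the 16 settings for the ratios.

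The erythroid list of 20 genes summed to 632, 766 and 539 CPM in members, and 38, 34 and 18 members had at least 10 of its UMIs per 10000. Genes of MHC class II presentation summed to 145, 101 and 360 CPM. In the Mll4-labelled members, Cd74, the invariant chain, stood at 58.6 CPM, with 86.9% of its UMIs in 1 cell, and at 7.75 CPM without that cell, against 3.54 CPM in control. H2-Eb1 stood at 67.3 CPM, with 41.4% in 1 cell, and at 39.7 CPM without it, against 4.86 CPM. The basophil and mast cell list summed to 28.6, 10.0 and 115 CPM, with 0, 0 and 4 members at or above 10 per 10000. Its gene Fcer1a, the alpha chain of the IgE receptor, was found in 7.27%, 0.791% and 26.4% of members, at 6.78, 0.448 and 62.5 CPM, and Ms4a2, the beta chain, in 2.73%, 1.58% and 5%. Prss34, a basophil protease, had 0 UMIs in members of each library. In other cells of the Mll4-labelled sample the Fcer1a ratio to control was 2.95, and 3.03 in members. The monocyte list put 2, 2 and 1 members, and the B-lineage list 1, 1 and 0, at or above 10 per 10000.

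Along the rule score, members were split at 20, 50 and 100 rule UMIs per 10000, which gave 68, 147, 95 and 20 control cells, 64, 96, 68 and 25 in the Mll3-labelled sample and 34, 50, 50 and 6 in the Mll4-labelled sample. Itga2b went from 218 CPM in the lowest range to 462 CPM in the highest in control, from 160 to 420 CPM in the Mll3-labelled sample, and from 693 to 1051 CPM in the Mll4-labelled sample. The lowest range of the Mll4-labelled sample was above the highest of the other libraries. The CD41 antibody, which the rule did not use, ran in parallel, with medians of 131 to 513 counts in control, 98.5 to 541 in the Mll3-labelled sample and 291.5 to 1007 in the Mll4-labelled sample.

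Serpine2 went from 47.7 to 251 CPM in control, from 12.6 to 98.9 CPM in the Mll3-labelled sample and from 241 to 503 CPM in the Mll4-labelled sample, and kept the order of the 3 libraries in each range. Clec1b went from 4.11 to 65.2 CPM, from 0.629 to 58.1 CPM and from 15.8 to 229 CPM. Vwf went from 53.4 to 242 CPM, from 74.8 to 209 CPM and from 75.2 to 206 CPM, with no such order. Itga2b, Serpine2, Clec1b and Vwf were thus higher in the highest range than in the lowest in each library, though with 6 cells in the highest range of the Mll4-labelled sample the intervals of Itga2b and Vwf overlapped there.

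Apoe ran against the score in control and in the Mll3-labelled sample. It went from 732 CPM in the lowest range of control to 102 CPM in the highest and from 417 to 141 CPM in the other, while in the Mll4-labelled sample it stayed between 39.3 and 80.0 CPM. Hlf went from 37.0 to 11.2 CPM in control and from 30.8 to 12.4 CPM in the Mll3-labelled sample. In the Mll4-labelled sample it stood at 63.3 CPM in the lowest range and had 0 UMIs in the 6 cells of the highest, where the exact interval reaches 84.3 CPM, which gives no direction. CD117 antibody medians went from 169 to 128.5 counts, from 216 to 119 and from 206.5 to 69.5. The summed G2/M genes went from 3132 to 6027 CPM in control and from 5342 to 4393 CPM in the Mll3-labelled sample. The highest range was thus above the lowest in control and below it in the Mll3-labelled sample. In the Mll4-labelled sample the sums were 4616, 4999, 4573 and 4479 CPM from the lowest range to the highest. The last rests on 6 cells, so these values give no direction.

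**Figure D5:**
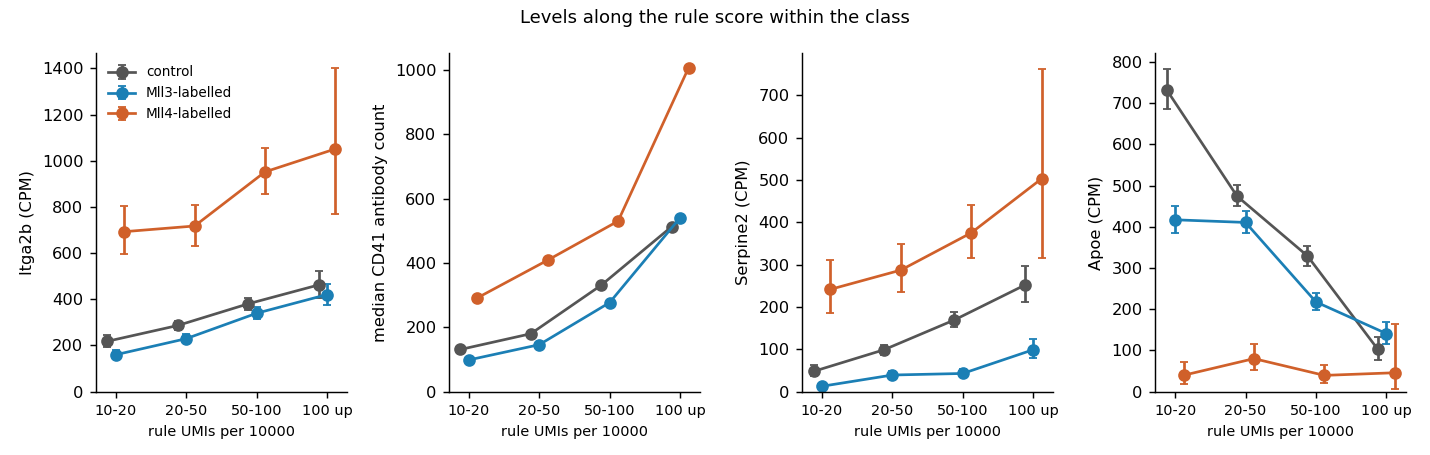
Level of Itga2b, Serpine2 and Apoe (CPM) and median CD41 antibody count (y axes) in 4 ranges of rule UMIs per 10000 (x axis) for members of 3 libraries, with exact 95% counting intervals on the CPM values. Itga2b, CD41 and Serpine2 are higher at higher scores in each library and highest in the Mll4-labelled one, while Apoe goes in control from 732 to 102 CPM and stays at or below 80.0 CPM in Mll4-labelled members.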

How the data were processed

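Single-cell gene and antibody counts of 4 libraries, 1 per group, were read from the UMI count matrices deposited by the authors. Reads had been processed with Cell Ranger 6.1.2 on mm10, per the submitters' processing notes; filters before deposit are not given in the sources used here. The deposited matrices held 10001, 9491, 6622 and 8284 barcodes (control, Mll3, Mll4 and Mll3/4 deleted), and 174795636, 161119914, 36413830 and 86721050 gene UMIs. PCR duplicates are collapsed by UMI, so intervals cover counting error only.

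Members, the 19 gene lists and the 2 motifs were chosen with earlier results of these data known, so no list is independent evidence of its direction. Counts were summed per library over members (python 3.11.15, numpy 2.4.6, scipy 1.17.1, pandas 2.3.3), scaled to CPM and compared as log2 ratios with a pseudocount of 1 CPM, which understates ratios of low genes, for genes with at least 20 UMIs in either library. "Other cells" are kept cells outside the class and below the neutrophil limit. Intervals are exact Poisson (levels), Clopper-Pearson (shares) and conditional binomial (plain ratios, without pseudocount) at 95%. With 1 library per group no test was run. Antibody thresholds came from a 2-component Gaussian mixture (scikit-learn 1.9.0) in control; 10 of 13 surface antibodies had one of at least 5 counts. Doublets were scored with Scrublet (scanpy 1.11.5) and removed only as an alternative, at 0.8% per 1000 barcodes. TMM factors came from edgeR 4.0.16 (R 4.3.3). Ratios were checked on simulated counts. Figures used matplotlib 3.10.9.

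Named genes were the rule genes and cell type markers, up to 6 members of each list by control level and up to 4 by size of ratio, the 12 higher and 12 lower genes per comparison whose interval lay farthest from 0, and Kmt2c and Kmt2d. Named outside this rule, after their values were seen, were Selp, Itgb3, P2ry1, Gata1, Runx1, Tubb1, Myl9, Gp6, Ehd3, Timp3, Xist and Eif2s3y. Alternatives covered the rule threshold, antibody thresholds fitted in each library, depth, doublets, scaling, pseudocount, count minimum, weighting of cells and hashtags; those by hashtag and without neutrophil genes in the total were chosen after seeing the data. Of the list genes, 1 (Mx1) was not found. The lists of B-lineage and of T and NK genes served only for the check of other cell types; the latter summed to 276, 125 and 117 CPM in members.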

Additional observations from a re-analysis of the deposited data

How the results depend on the processing

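No replicate library exists, so every value depends on 1 library per group. No paired analysis was possible because each group has 1 sample and no test was run. The lower share of the Mll4-labelled library (log2 ratio -0.78) was -0.12 over cells below the neutrophil limit and -1.14 in Hashtag2 cells alone. The number of genes past 2-fold depended on the settings. In the Mll3-labelled members, 59 higher became 6 with a pseudocount of 10 CPM, 14 with at least 100 UMIs, 91 with no minimum and 32 after thinning to 2000 UMIs; 134 lower became 15 and 48 under the first 2 of these and 222 in Hashtag1 cells. In the Mll4-labelled members, 485 higher became 249 with TMM scaling, 157 with a pseudocount of 10, 206 with at least 100 UMIs, 931 with no minimum and 244 after thinning; 403 lower became 619, 48, 129, 705 and 208. Fewer genes enter with a higher minimum; for the others the cause was not tested. In the Mll3-labelled members the median of granule genes was -0.12 after thinning, that of surface receptors 0.010, of cytoskeleton genes 0.12 and of immediate early genes 0.41 in Hashtag2 cells, and that of G2/M genes 0.015 with a rule threshold of 20 and 0.33 after thinning. The surface median of the Mll4-labelled members was -0.074 with TMM scaling and 0.86 after thinning. Of single genes in the Mll3-labelled members, Plek was at 0.083 and Clec1b at 0.11 in Hashtag2 cells, Fli1 at 0.078 and Kmt2d at 0.22 after thinning, and Car1 at -0.28 without high doublet scores, -0.041 without erythroid-rich members and -0.53 in Hashtag1 cells; in the Mll4-labelled members Gfi1b was at -0.27 after thinning. Other ratios moved by over 1.5 times, and those named here kept their sign except Esam. After thinning these were, beside those given with the results, Gata1 at -0.65 and Irf8 at 0.98 in the Mll3-labelled members and Socs2 at -0.34 and Tcf15 at -2.71 in the Mll4-labelled members, where Esam went from 0.0056 to -0.73. In Hashtag2 cells Lyl1 was at -0.16, Lat at -3.27 and Apoe at -3.87 in the Mll4-labelled members. Of the antibody shares recomputed, 19 moved beyond their counting interval and 81 did not. Shares at other settings are given with the results for CD48, CD34, CD117, Sca1 and Gr1 only. Of the other values for list medians, 352 moved by less than their counting interval. Among these, the interferon list median of the Mll4-labelled members lay between -0.41 and 0.90 over the 16 settings. Of the values for single genes, 270 counted as moved, 8 as reversed and 2482 as neither. Depth limits the Mll4-labelled members most, at a median of 6679 UMIs per cell.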

Other observations

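Some messages differed between libraries in the same direction in other cells as in the members. Pttg1, securin, stood at 21.4 CPM in control members, 90.6 in Mll3-labelled and 100 in Mll4-labelled members, and its log2 ratios to control were 2.03 (1.82 to 2.36) and 2.18 (1.85 to 2.60) in members and 1.66 and 1.55 in other cells, below the intervals of the members. The histone gene Hist1h2ap stood at 226, 769 and 1112 CPM, with ratios of 1.76 and 2.30 in members and 1.73 and 2.15 in other cells. Gm10076 stood at 294, 927 and 2000 CPM, with ratios of 1.65 and 2.76 in members and 1.55 and 2.82 in other cells. Nefh, a neurofilament chain, had 105, 1 and 1 UMIs in members, and Gm47283 stood at 402, 319 and 67.3 CPM.

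The 2 genes Kcnj5 and Slc35d3, named after their values were seen, were highest in Mll4-labelled members and under 1 CPM in other cells. Kcnj5, a potassium channel, stood at 14.1, 11.5 and 72.1 CPM in members, a ratio of 2.27 (1.89 to 2.80) in the Mll4-labelled sample. Other cells had 0.254 CPM in control and 0.853 CPM in the Mll4-labelled sample, with an interval of the ratio of 0.76 to 2.66. Slc35d3, a transporter linked to platelet dense granules, stood at 27.8, 13.3 and 67.3 CPM, ratios of -1.01 (-1.45 to -0.69) and 1.24 (0.86 to 1.68). In other cells its intervals were -1.02 to 0.32 and 0.20 to 2.07. The intervals of members and other cells overlapped for both genes, so no difference between these cell groups is shown.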
